A study of Mus musculus with 6 samples.

Results

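The CHD and BAF chromatin remodellers examined here are 40 genes of 54429 in the count tables, taken by symbol from a written list: 9 CHD genes, 2 ISWI ATPases, 25 subunits of the SWI/SNF (BAF) complexes, the partner proteins Adnp and Pogz, and the ATPases Ino80 and Srcap. Chromatin remodellers use ATP to slide, evict or exchange nucleosomes, and so set which stretches of DNA other proteins can reach. CHD, ISWI, SWI/SNF and INO80 are the main families, and most work in complexes built around an ATPase. When neural progenitors become neurons, several BAF subunits are exchanged for neuronal paralogs, and mutations in many CHD and BAF genes cause autism or intellectual disability.

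RNA came from total lysates of prefrontal cortex (PFC) of mice aged 6 to 8 weeks. The tissue had received AAV9, a viral vector for gene delivery, carrying either a short hairpin RNA against Kmt5b or green fluorescent protein (GFP). Kmt5b is a histone H4 methyltransferase linked to autism. There were 3 libraries labelled Kmt5b shRNA and 3 labelled GFP, and the comparison asked which transcripts differ when Kmt5b is targeted. Both groups were given as C57BL6/J in the sample labels and as a cross with C3H in the design text, and neither source names the promoter of either vector. The design text counted 3 Kmt5b shRNA mice but 2 GFP mice, and the protocol spoke of duplicates, so GFP libraries may share an animal and p-values measure only the spread between these libraries. In bulk tissue, fewer cells of a type and less RNA per cell cannot be told apart.

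Total counts were 48828638 to 57486203 in the Kmt5b shRNA libraries and 29490771 to 74723284 in the GFP libraries. Kmt5b itself was at 68.5, 80.3 and 63.9 CPM (counts scaled to library size) in the Kmt5b shRNA libraries, against 86.5, 79.7 and 80.9 CPM in the GFP libraries. The library labelled Kmt5b shRNA replicate 2 lay inside the GFP range, and the log2 fold change of -0.22 ± 0.10 (SE) did not pass the test (edgeR adjusted p = 0.303), so each direction that follows is only as good as the group labels. Neuron, astrocyte, oligodendrocyte, precursor, microglia and endothelial markers were all detected, and no marker was at 0. Summed over 10 genes, oligodendrocyte markers spanned 1577 to 3325 CPM in the Kmt5b shRNA libraries and 2859 to 4372 CPM in the GFP libraries. All 10 had log2 fold changes below 0, with a median of -0.42, and none was called by edgeR. Astrocyte markers, also 10 genes, did not overlap, with 4330 to 4907 CPM in the Kmt5b shRNA libraries and 5013 to 5158 CPM in the GFP libraries. Slc1a2, Slc1a3 and Aldoc made up 81.6% of that sum on average in the Kmt5b shRNA libraries and 82.7% in the GFP libraries, and 3 of the 10 genes (Gfap, Sox9 and Fgfr3) had log2 fold changes above 0. Over 14 genes, neuron markers spanned 10505 to 11724 CPM in the Kmt5b shRNA libraries and 10637 to 12562 CPM in the GFP libraries. Of the 68 markers, 3 were called lower (Nefm, Aqp4 and Gja1) and 2 higher (Olig2 and Nes) by an edgeR test over all genes, which called 8.46% of them. In a fit with the counts of intronless copies added to their parent genes, Olig2 and Nes were no longer called (edgeR adjusted p = 0.0622 and 0.105), and the other 3 were. Olig2 and Nes have no copy themselves, and their log2 fold changes were 0.53 and 0.42 in that fit, against 0.54 and 0.44 before. The part of the marker differences in the results below was not tested.

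All 40 remodeller genes had enough counts to be tested, and 3 rose in the Kmt5b shRNA libraries: Smarca5, Smarce1 and Bcl7c. With the counts of their intronless copies added, Smarca5 alone of the 40 was called. A gene was called at an edgeR quasi-likelihood adjusted p under 0.05 over all 24419 genes tested, where 8.46% of genes were called, 2.77% higher and 5.69% lower. Among protein-coding genes, 3.75% were called higher and 1.58% lower. None of the 40 was called lower by edgeR or by DESeq2, which called the same number higher. The share of all genes that DESeq2 called at an adjusted p is not given here. At an unadjusted p under 0.05, edgeR had 9 higher and 1 lower, and DESeq2 11 higher and 1 lower. At that threshold edgeR had 7.2% of all genes higher and 10.2% lower, and DESeq2 6.39% higher and 9.07% lower. Among protein-coding genes, edgeR had 9.45% higher and 6.16% lower. Of the 40 fold changes, 26 were above 0 and 14 below, with a median log2 value of 0.09, against -0.02 over all genes tested and 0.01 over protein-coding genes. CPM of the groups did not overlap in 11 genes that were higher and 3 that were lower in the Kmt5b shRNA libraries, beside 9.84% and 12.7% of all genes tested. These 2 shares were not computed for protein-coding genes alone, which were called higher more often and lower less often than all genes.

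The 3 called genes share a feature: each has intronless copies elsewhere in the genome, annotated as separate genes or pseudogenes and counted in rows of their own. Of the 40 genes, 7 had such a copy in the tables, and 3 of those 7 were called. Of the 33 with no copy counted, none was called by edgeR or DESeq2, with 5 higher and 1 lower at an unadjusted p under 0.05 by edgeR and 7 higher and 1 lower by DESeq2. Among all protein-coding genes without copies, edgeR had 7.42% higher and 6.48% lower at that threshold. Across the whole table, 20.6% of protein-coding genes with intronless copies were called higher, against 2.03% of those without. The counts on gene and copies are therefore given side by side. The sequences around 1 exon junction of each called gene show how alike gene and copy are at that place. They are coding sequence of GENCODE M21 transcripts (GRCm38/mm10), 60 bases in the gene's own direction. Each junction is the first in coding sequence at which every copy aligns without a gap, so it does not stand for the whole gene.

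Smarca5, an ISWI ATPase that spaces nucleosomes (also called SNF2H), lies at chr8:80698507-80739497 on the minus strand, and 4 intronless copies lie on chromosome 4. The stretch below crosses from exon 3 to exon 4. Capitals in the Smarca5 line mark the base on each side of the junction, and capitals in the other lines mark bases that differ from Smarca5. The 4 copies differ from it at 2 or 3 of the 60 bases.
Smarca5: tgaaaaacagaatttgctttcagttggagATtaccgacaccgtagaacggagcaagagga
Smarca5-ps: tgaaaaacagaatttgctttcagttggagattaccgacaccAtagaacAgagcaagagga
Gm13034: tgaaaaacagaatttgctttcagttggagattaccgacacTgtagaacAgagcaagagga
Gm13135: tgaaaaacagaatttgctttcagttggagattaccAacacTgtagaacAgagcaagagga
Gm13136: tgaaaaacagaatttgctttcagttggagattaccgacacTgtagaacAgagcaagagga

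Smarca5 had 107.1, 133.2 and 111.6 CPM in the Kmt5b shRNA libraries, against 76.6, 62.2 and 62.1 CPM in the GFP libraries. Every Kmt5b shRNA library was above every GFP library, at a log2 fold change of 0.81 ± 0.12 (SE, edgeR adjusted p = 0.000138). The 4 copies together had 4.13, 4.45 and 4.59 CPM in the Kmt5b shRNA libraries against 20.7, 14.7 and 16.5 CPM in the GFP libraries. Thus the copies were lower where the gene was higher. Gene and copies summed to 121.7 ± 14.0 CPM (SD) in the 3 Kmt5b shRNA libraries and 84.3 ± 11.3 CPM (SD) in the 3 GFP libraries. With the counts of copies added to their parent genes throughout the table, Smarca5 was still called, at a log2 fold change of 0.51 ± 0.12 (SE, edgeR adjusted p = 0.0270). In that fit 1.29% of genes were called higher and 1.35% lower, and Smarca5 was the 1 remodeller gene called.

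Smarce1, the BAF subunit with an HMG domain that binds DNA (BAF57), lies at chr11:99209047-99231017 on the minus strand. Its 4 copies lie on chromosomes 5, 8 and 13. The stretch crosses from exon 5 to exon 6, with capitals as above. Smarce1-ps1 is identical to the gene over these 60 bases, and the other copies differ at 1 to 3.
Smarce1: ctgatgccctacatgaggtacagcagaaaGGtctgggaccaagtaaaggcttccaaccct
Smarce1-ps1: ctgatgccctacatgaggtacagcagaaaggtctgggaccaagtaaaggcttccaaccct
Gm8494: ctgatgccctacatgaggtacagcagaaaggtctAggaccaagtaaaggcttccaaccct
Gm4811: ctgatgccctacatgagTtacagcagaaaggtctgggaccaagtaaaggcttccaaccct
Gm6411: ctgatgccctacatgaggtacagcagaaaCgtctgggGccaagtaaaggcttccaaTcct

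Smarce1 had 48.4, 53.0 and 44.8 CPM in the Kmt5b shRNA libraries, against 35.5, 33.3 and 26.6 CPM in the GFP libraries, without overlap. It was called at a log2 fold change of 0.62 ± 0.12 (SE, edgeR adjusted p = 0.00222). The copies summed to 5.10, 5.44 and 5.72 CPM in the Kmt5b shRNA libraries, against 15.4, 14.9 and 13.4 CPM in the GFP libraries. Of the 4, Gm6411, the least alike at 91.4% identity, overlapped between groups, and the other 3 were lower in every Kmt5b shRNA library. With copies added, the sum was 54.2 ± 4.02 CPM (SD) in the 3 Kmt5b shRNA libraries and 46.3 ± 5.66 CPM (SD) in the 3 GFP libraries. That difference was not called, at a log2 fold change of 0.21 ± 0.11 (SE, edgeR adjusted p = 0.464).

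Bcl7c, a small accessory BAF subunit, lies at chr7:127661456-127708933 on the minus strand, and its copy Gm3219 lies on chromosome 14. The copy is 303 bases long and identical over those bases to the gene, whose longest protein-coding transcript has 1132 bases. The stretch crosses from exon 4 to exon 5, and no base differs.
Bcl7c: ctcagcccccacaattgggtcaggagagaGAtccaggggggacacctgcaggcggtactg
Gm3219: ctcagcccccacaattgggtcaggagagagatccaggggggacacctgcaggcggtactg

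Bcl7c had 19.1, 16.4 and 18.1 CPM in the Kmt5b shRNA libraries, against 10.7, 12.9 and 11.7 CPM in the GFP libraries, without overlap. It was called at a log2 fold change of 0.61 ± 0.12 (SE, edgeR adjusted p = 0.00346). Gm3219 held 6, 6 and 7 reads in the Kmt5b shRNA libraries, against 200, 110 and 205 reads in the GFP libraries. With the copy added, Bcl7c was at 18.0 ± 1.32 CPM (SD) in the 3 Kmt5b shRNA libraries and 14.8 ± 1.47 CPM (SD) in the 3 GFP libraries, which was not called (log2 fold change 0.27 ± 0.12 SE, edgeR adjusted p = 0.356). Its relatives without copies, Bcl7a and Bcl7b, were not called, at log2 fold changes of 0.22 ± 0.11 and -0.13 ± 0.11 (SE; edgeR adjusted p = 0.337 and 0.634). Bcl7a was nonetheless higher in every Kmt5b shRNA library than in every GFP library, and Bcl7b overlapped.

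**Figure D1:**
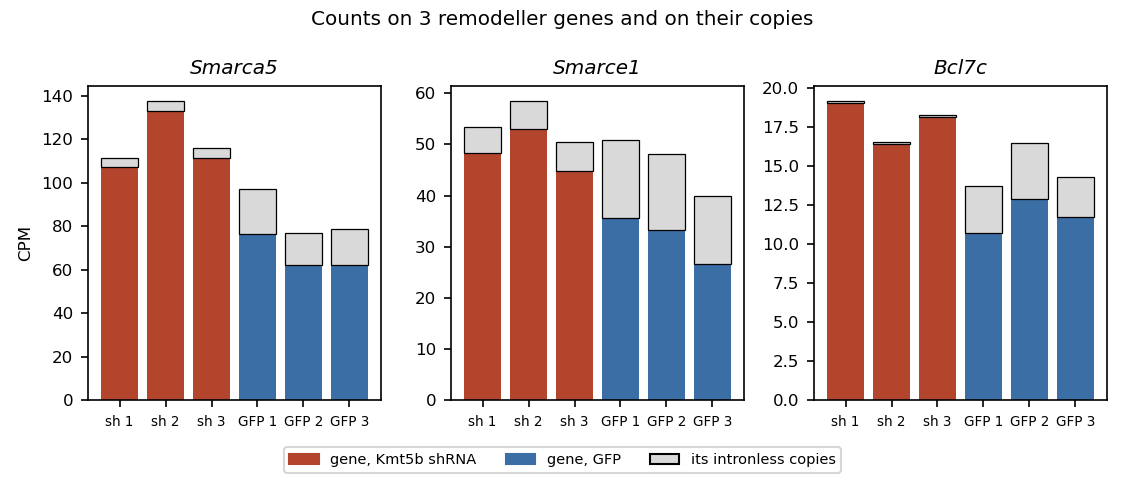
CPM on Smarca5, Smarce1 and Bcl7c (coloured bars) and, stacked in grey, on their intronless copies, in the 3 Kmt5b shRNA libraries (sh, left) and the 3 GFP libraries (right). The grey part is smaller in every Kmt5b shRNA library, as for Smarca5 with 4.13 to 4.59 CPM in Kmt5b shRNA libraries against 14.7 to 20.7 CPM in GFP libraries.

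The other 4 genes with a copy were Chd6, Smarcc1, Actl6a and Ss18, and none was called. Their copies Gm8291, Gm7004, Gm13607 and Gm1826 were each lower in every Kmt5b shRNA library than in every GFP library. Gm7004, the copy of Smarcc1, had 0, 0 and 10 reads in the Kmt5b shRNA libraries, against 136, 82 and 102 reads in the GFP libraries. Of the 13 copies of the 7 genes, 12 were thus lower without overlap, beside 12.7% of all genes tested. The share over all 5336 intronless copies was not computed. Across the table, 5.69% of genes were called lower by edgeR, and 1.35% once copies were added to their parents. Whether reads were assigned differently to genes and copies in the libraries of each group was not tested.

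The 9 CHD genes, which carry paired chromodomains that bind histone tails, showed no call in either direction. At an unadjusted p under 0.05, 2 were higher and 1 lower by both edgeR and DESeq2. By edgeR, 9.45% of protein-coding genes were higher and 6.16% lower at that threshold. The median log2 fold change of the 9 CHD genes was -0.06. Chd8, a frequent target of disruptive mutations in autism, had 139.2, 132.6 and 141.5 CPM in the Kmt5b shRNA libraries, against 128.5, 134.5 and 140.1 CPM in the GFP libraries. These ranges overlapped, and Chd8 was not called, at a log2 fold change of 0.04 ± 0.09 (SE, edgeR adjusted p = 0.912) with a 95% interval from -0.16 to 0.23. Chd2, mutated in childhood epilepsy, had 101.3, 100.8 and 100.9 CPM in the Kmt5b shRNA libraries, against 113.5, 124.8 and 112.2 CPM in the GFP libraries. All 3 Kmt5b shRNA libraries were lower, but the log2 fold change of -0.21 ± 0.09 (SE) was not called (edgeR adjusted p = 0.240).

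Chd3, Chd4 and Chd5 are the alternative ATPases of the NuRD deacetylase complex. Chd3 had 779.1, 827.8 and 767.2 CPM in the Kmt5b shRNA libraries, against 724.9, 588.3 and 634.4 CPM in the GFP libraries. The groups did not overlap, and the log2 fold change of 0.29 ± 0.11 (SE) was not called (edgeR adjusted p = 0.146), but without GFP replicate 1 it was (edgeR adjusted p = 0.0311). Chd4 had 251.5, 225.7 and 258.1 CPM in the Kmt5b shRNA libraries, against 245.0, 260.6 and 253.5 CPM in the GFP libraries. Chd5, the neuronal paralog, had 350.9, 334.5 and 329.5 CPM in the Kmt5b shRNA libraries, against 364.7, 346.5 and 345.2 CPM in the GFP libraries. Chd4 and Chd5 both overlapped between groups, at log2 fold changes of -0.05 ± 0.10 and -0.06 ± 0.09 (SE). Of the other CHD genes, Chd1, which travels with elongating RNA polymerase, had a log2 fold change of 0.26 ± 0.11 (SE, edgeR adjusted p = 0.220), and Chd6, Chd7 and Chd9 lay between -0.17 and -0.09. Chd7, the gene of CHARGE syndrome, was the lowest of the CHD genes per kb of exon in both groups, with levels of 19.1 ± 3.34 CPM (SD) in the 3 Kmt5b shRNA libraries and 20.7 ± 2.43 CPM (SD) in the 3 GFP libraries.

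**Figure D2:**
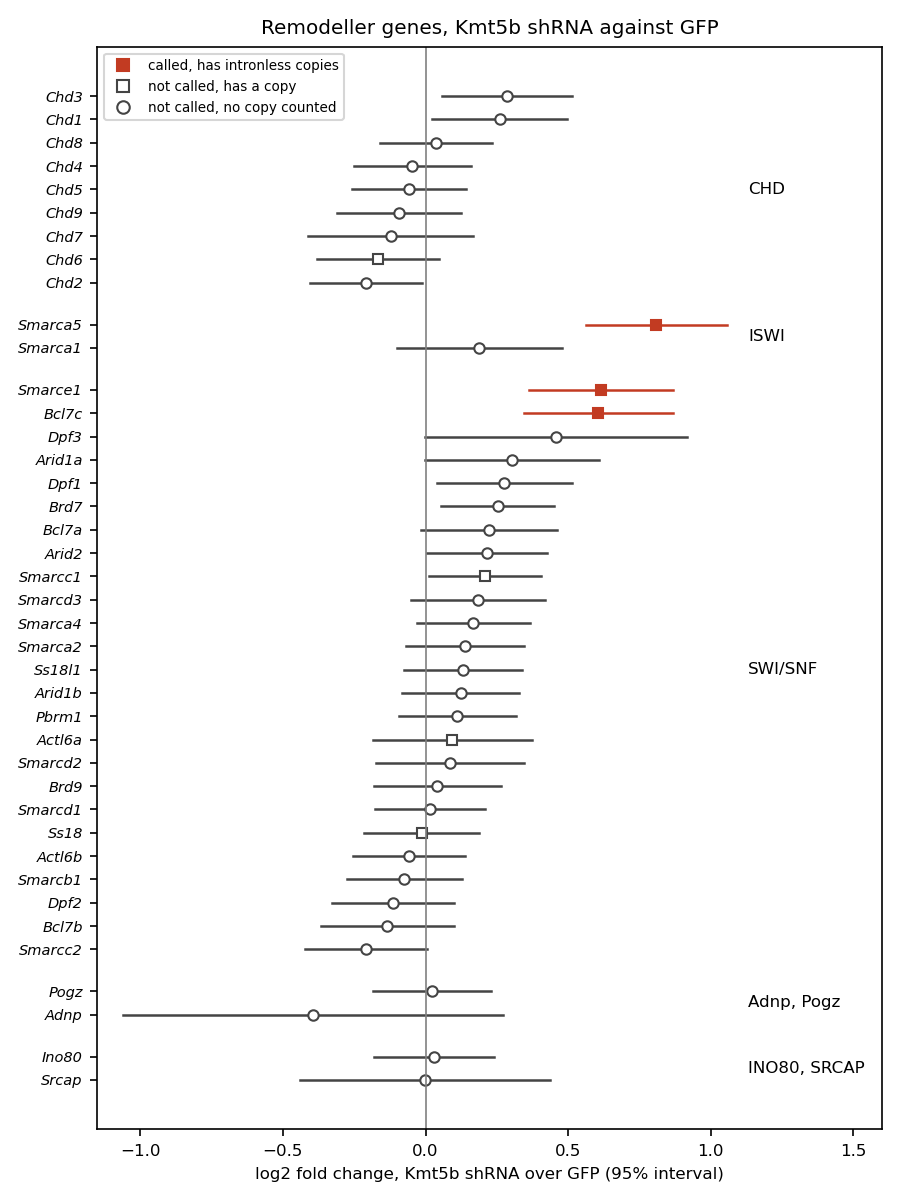
Log2 fold change of each of the 40 remodeller genes, Kmt5b shRNA over GFP, with its 95% interval, grouped by family. Filled squares are the called genes Smarca5 (0.81), Smarce1 (0.62) and Bcl7c (0.61), open squares are genes with an intronless copy that were not called, and circles are genes with no copy counted.

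Of the 25 SWI/SNF genes, Smarce1 and Bcl7c were called and 23 were not. These 23 had log2 fold changes from -0.21 to 0.46, with 17 above 0 and a median of 0.12. The median was -0.02 over all genes tested and 0.01 over protein-coding genes, and the share of genes above 0 is not given here. Smarcc1, Actl6a and Ss18, which have a copy, are among the 23. The ATPases of the complex are Smarca4 (BRG1) and Smarca2 (BRM). Smarca4 had 201.3, 187.0 and 201.8 CPM in the Kmt5b shRNA libraries, against 181.8, 169.6 and 173.9 CPM in the GFP libraries. Smarca2 had 390.2, 340.8 and 358.7 CPM in the Kmt5b shRNA libraries, against 330.8, 334.8 and 325.1 CPM in the GFP libraries. In both genes every Kmt5b shRNA library was above every GFP library, and neither was called, at log2 fold changes of 0.17 ± 0.09 and 0.14 ± 0.10 (SE; edgeR adjusted p = 0.406 and 0.555). The core subunit Smarcb1 had a log2 fold change of -0.07 ± 0.09 (SE, edgeR adjusted p = 0.790).

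Smarcc1 and Smarcc2 are the paired scaffold subunits of the BAF core. Smarcc1 (BAF155) had 97.7, 88.6 and 98.2 CPM in the Kmt5b shRNA libraries, against 83.4, 82.4 and 80.4 CPM in the GFP libraries. Smarcc2 (BAF170) had 227.6, 226.3 and 215.6 CPM in the Kmt5b shRNA libraries, against 259.3, 281.0 and 233.0 CPM in the GFP libraries. The groups were apart in both genes, higher for Smarcc1 and lower for Smarcc2 in Kmt5b shRNA libraries, yet neither was called (edgeR adjusted p = 0.244 and 0.310).

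Arid1a and Arid1b are the mutually exclusive large subunits of canonical BAF, and Arid1b is among the genes most often mutated in intellectual disability. Arid1a had 88.5, 78.0 and 107.6 CPM in the Kmt5b shRNA libraries, against 59.6, 83.0 and 79.9 CPM in the GFP libraries. Arid1b had 121.9, 110.3 and 117.2 CPM in the Kmt5b shRNA libraries, against 98.8, 112.6 and 109.7 CPM in the GFP libraries. Both overlapped between groups. In the PBAF form of the complex, Arid2, Pbrm1 and Brd7 had log2 fold changes of 0.22, 0.11 and 0.25, and Brd9 of the noncanonical form had 0.04. Of these, Arid2 and Brd7 did not overlap between groups, and none was called (smallest edgeR adjusted p = 0.134, for Brd7).

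Neuronal BAF carries Actl6b in place of Actl6a, Dpf1 or Dpf3 in place of Dpf2, and Ss18l1 in place of Ss18. Actl6b, an actin-related protein (BAF53b), had 43.8, 43.8 and 42.0 CPM in the Kmt5b shRNA libraries, against 47.3, 43.5 and 44.1 CPM in the GFP libraries. Actl6a, its progenitor counterpart, had 12.97, 10.8 and 12.8 CPM in the Kmt5b shRNA libraries, against 11.6, 12.3 and 10.4 CPM in the GFP libraries. Both overlapped, and neither was called (edgeR adjusted p = 0.844 for Actl6b and 0.812 for Actl6a). Ss18l1 (CREST) had 79.4, 82.5 and 73.1 CPM in the Kmt5b shRNA libraries, against 76.6, 70.2 and 67.8 CPM in the GFP libraries. Ss18 had 27.4, 27.2 and 26.8 CPM in the Kmt5b shRNA libraries, against 27.1, 27.3 and 27.7 CPM in the GFP libraries. These overlapped too, at log2 fold changes of 0.13 ± 0.10 and -0.01 ± 0.09 (SE).

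The Dpf genes encode PHD-finger subunits that bind histone tails. Dpf1 had 58.4, 50.1 and 51.6 CPM in the Kmt5b shRNA libraries, against 50.6, 40.2 and 41.3 CPM in the GFP libraries. Dpf3 had 4.34, 3.49 and 4.56 CPM in the Kmt5b shRNA libraries, against 3.30, 2.38 and 3.27 CPM in the GFP libraries. Dpf2 had 30.01, 26.1 and 26.9 CPM in the Kmt5b shRNA libraries, against 30.9, 29.2 and 29.7 CPM in the GFP libraries. Only Dpf3 of the 3 did not overlap, and none was called (edgeR adjusted p = 0.186 for Dpf1, 0.289 for Dpf3 and 0.662 for Dpf2), though Dpf1 was called without GFP replicate 1 (edgeR adjusted p = 0.0337). Among the BAF60 subunits, Smarcd3 had 33.7, 30.7 and 28.1 CPM in the Kmt5b shRNA libraries, against 29.5, 24.2 and 27.7 CPM in the GFP libraries. Smarcd1 had 69.5, 72.2 and 69.6 CPM in the Kmt5b shRNA libraries, against 72.4, 69.2 and 67.4 CPM in the GFP libraries. Both overlapped, and Smarcd2 had a log2 fold change of 0.08. Of Smarcd3's 5120 exon bases, 2466 lie opposite the gene Chpf2, and whether counting used strand is not given in the sources used here.

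**Figure D3:**
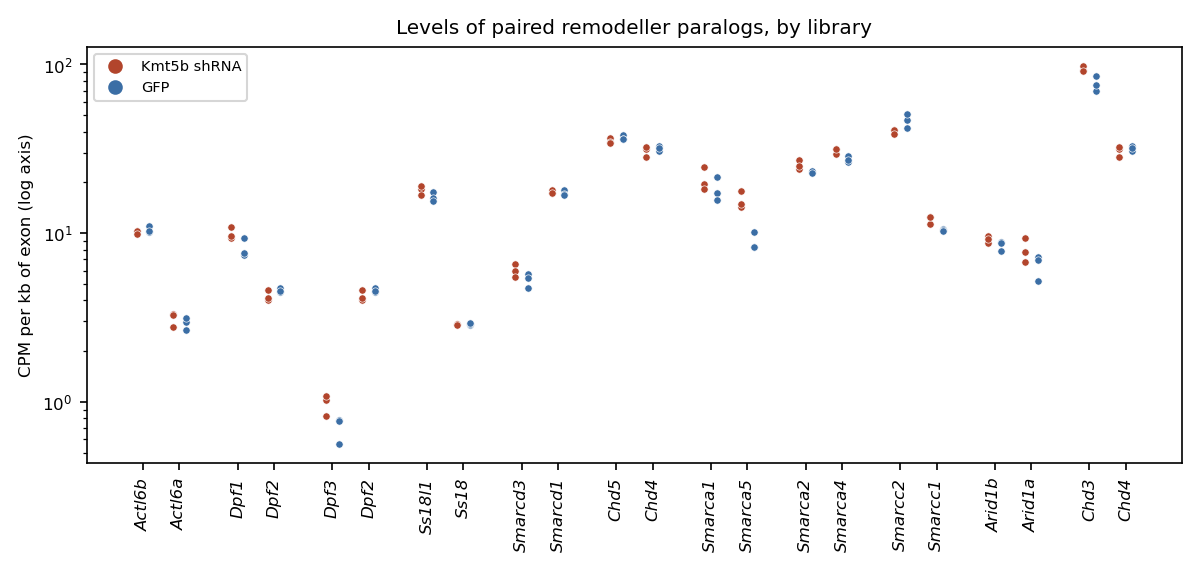
Level of each paired remodeller paralog in CPM per kb of exon (log axis) in each Kmt5b shRNA library (red, left) and GFP library (blue, right). The exon length leaves out bases shared with another gene on the same strand. Chd3 was highest, at a mean of 93.7 CPM per kb in Kmt5b shRNA and 76.9 CPM per kb in GFP libraries, and Dpf3 lowest, at 0.977 CPM per kb in Kmt5b shRNA and 0.706 CPM per kb in GFP libraries.

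To compare paralogs, levels were divided by exon length, leaving out bases shared with another gene on the same strand. The log2 ratio of each of 11 pairs was tested over libraries. In 4 of the 7 neuronal pairs the neuronal gene was the higher in the GFP libraries by either measure of length: Actl6b over Actl6a, Dpf1 over Dpf2, Ss18l1 over Ss18 and Smarca1 over Smarca5. Dpf3 and Smarcd3 were lower than Dpf2 and Smarcd1. The order of Chd5 and Chd4, and of Smarca2 and Smarca4, turned with the length used. In GFP libraries Chd5 was 1.16 times Chd4 by unshared exon bases and 0.983 times by the longest transcript. Smarca2 was 0.843 and 2.03 times Smarca4 by these lengths.

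In 5 of the 11 pairs the log2 ratios of the groups did not overlap. The share of other gene pairs without overlap was not computed, so this count has no background beside it. Each of the 5 had a two-sided exact permutation p of 0.1, the smallest that 3 against 3 libraries allow. After Benjamini-Hochberg adjustment over the 11, each was at 0.22. The Dpf1/Dpf2 log2 ratio averaged 1.22 ± 0.01 in Kmt5b shRNA libraries and 0.82 ± 0.14 in GFP libraries (SD, n = 3 each), a difference of 0.40. Dpf3/Dpf2 averaged -2.13 ± 0.17 in Kmt5b shRNA libraries and -2.72 ± 0.24 in GFP libraries, and these ratios share their Dpf2 values. Chd3/Chd4 averaged 1.61 ± 0.16 in Kmt5b shRNA libraries and 1.27 ± 0.20 in GFP libraries.

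The ratio was lower in Kmt5b shRNA libraries for the other 2 of these pairs. Smarca1, the neuronal ISWI ATPase (SNF2L), had 119.2, 150.6 and 112.1 CPM in the Kmt5b shRNA libraries, against 132.4, 106.5 and 96.1 CPM in the GFP libraries, which overlapped. Smarca1/Smarca5 averaged 0.41 ± 0.09 in Kmt5b shRNA libraries and 1.03 ± 0.09 in GFP libraries (SD, n = 3 each), a difference of -0.62 that came to -0.34 with the copies of Smarca5 added. Smarcc2/Smarcc1 averaged 1.73 ± 0.11 in Kmt5b shRNA libraries and 2.14 ± 0.12 in GFP libraries, a difference of -0.41, or -0.38 with copies added. The other 6 pairs overlapped between groups, with exact permutation p from 0.2 to 0.9.

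**Figure D4:**
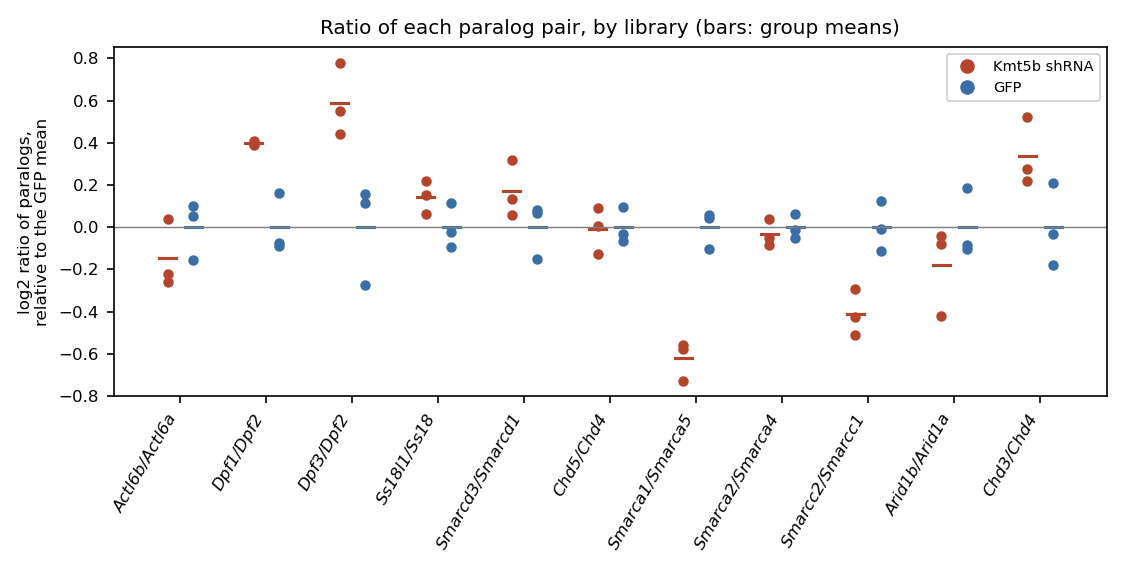
Log2 ratio of each paralog pair in each Kmt5b shRNA library (red, left) and GFP library (blue, right), given relative to the GFP mean of that pair, with a bar at each group mean. Dpf1/Dpf2, Dpf3/Dpf2 and Chd3/Chd4 lie above all GFP libraries by 0.40, 0.59 and 0.34 on average, and Smarca1/Smarca5 and Smarcc2/Smarcc1 lie below by 0.62 and 0.41.

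Adnp, a homeodomain and zinc-finger protein that works with Chd4 and is mutated in a syndromic autism, held few counts: 45, 34 and 56 in the Kmt5b shRNA libraries, against 63, 39 and 91 in the GFP libraries. That is 0.791, 0.732 and 1.02 CPM in the Kmt5b shRNA libraries and 0.942, 1.27 and 1.16 CPM in the GFP libraries, which overlapped (log2 fold change -0.40 ± 0.31 SE, edgeR adjusted p = 0.615). Of its 5350 exon bases, 4393 (82.1%) also belong to the readthrough gene Gm20716 on the same strand, which had no counts in any library. Srcap, the ATPase that places the histone variant H2A.Z, shares 61.7% of its 15783 exon bases with Gm42715 in the same way, and had a log2 fold change of 0.00 ± 0.20 (SE). How reads on shared bases were counted is not given in the sources used here, so the levels of Adnp and Srcap are uncertain. Chd2 shares 18.4% of its exon bases with 1810026B05Rik.

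**Figure D5:**
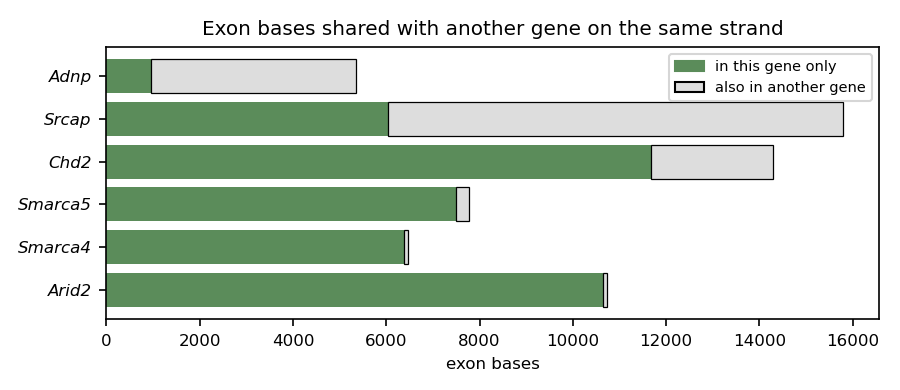
Exon bases of 6 remodeller genes that belong to the gene alone (green) or also to another gene on the same strand (grey). Adnp shares 82.1% and Srcap 61.7%.

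Pogz, a zinc-finger protein that binds heterochromatin protein and is mutated in autism, had 46.1, 48.7 and 49.8 CPM in the Kmt5b shRNA libraries, against 43.4, 50.5 and 48.5 CPM in the GFP libraries. These overlapped, at a log2 fold change of 0.02 ± 0.10 (SE, edgeR adjusted p = 0.952). Ino80, the ATPase of the INO80 complex, had 0.03 ± 0.10 (SE, edgeR adjusted p = 0.935).

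The spread between libraries set what could be seen. The median SE of the 40 log2 fold changes was 0.10, with the highest at 0.31 for Adnp. The median coefficient of variation was 6.52% in the Kmt5b shRNA libraries and 8.62% in the GFP libraries. Among the GFP libraries, 18 of the 40 genes were highest in replicate 1, 16 in replicate 2 and 6 in replicate 3.

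A wider list held 60 further genes, made up of subunits of remodelling complexes and related remodellers. Of these, edgeR called 5 higher and none lower, with the same numbers by DESeq2. The 5 stand beside 3.75% of protein-coding genes called higher by edgeR, and 20.6% of those with intronless copies. Like shares by DESeq2 are not given here. At an unadjusted p under 0.05, 9 were higher and 1 lower by edgeR (10 and 0 by DESeq2). By edgeR, 9.45% of protein-coding genes were higher and 6.16% lower at that threshold. The 5 called genes were the NuRD deacetylase Hdac1, the NuRD subunit Cdk2ap1, the INO80 helicase Ruvbl1, the INO80 subunit Mcrs1 and the remodeller Btaf1. Btaf1 removes TATA-binding protein from DNA. Hdac1, Cdk2ap1, Ruvbl1 and Mcrs1 have intronless copies, and Btaf1 has none. The further genes with copies that were not called were Actb, Rbbp4, Rbbp7, Baz1a, Pole4, Ino80c, Uchl5, Vps72, Ep400 and Hltf. Hdac1 had 13.6, 14.2 and 12.9 CPM in the Kmt5b shRNA libraries, against 7.34, 7.22 and 7.67 CPM in the GFP libraries. Cdk2ap1 had 28.6, 26.96 and 27.1 CPM in the Kmt5b shRNA libraries, against 16.3, 15.3 and 16.2 CPM in the GFP libraries. In both NuRD genes the groups were apart. Ruvbl1 had 33.2, 36.1 and 27.3 CPM in the Kmt5b shRNA libraries, against 16.98, 15.1 and 14.4 CPM in the GFP libraries. Mcrs1 had 72.2, 67.9 and 69.1 CPM in the Kmt5b shRNA libraries, against 31.1, 29.0 and 29.0 CPM in the GFP libraries. Btaf1 had 94.4, 126.0 and 115.5 CPM in the Kmt5b shRNA libraries, against 87.9, 83.8 and 75.2 CPM in the GFP libraries. These 3 did not overlap between groups either. With copies added, Cdk2ap1 alone was called, at a log2 fold change of 0.53 (edgeR adjusted p = 0.00515), against 0.79 without. Mcrs1 then came to 0.32, against 1.23 without its copy (edgeR adjusted p = 0.120 with it). Ruvbl1 came to 0.10, against 1.06 without its copy, and Hdac1 to 0.06, against 0.87 without its copies (edgeR adjusted p = 0.810 and 0.897 with them). Btaf1, which has no copy, was at 0.43 in that fit, against 0.44 before (edgeR adjusted p = 0.0680 and 0.0214).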

How the data were processed

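Deposited files hold raw read counts per gene symbol, made by the authors for each of the 6 libraries, with no normalization. Trimmed reads from ribosome-depleted, strand-specific libraries went to RefSeq mRNAs with TopHat2, per the labels' protocols. The submitters' processing notes instead name STAR, featureCounts, DESeq2 and mm10. Strand, overlap and multi-mapping settings are not given in the sources used here, so counts on overlapping genes and near-identical copies are uncertain.

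Sample titles gave the groups and numbers. The test was that of edgeR 4.0.16 under R 4.3.3 (filterByExpr, TMM, robust quasi-likelihood fit with legacy=TRUE) on all 24419 genes kept, with Benjamini-Hochberg adjustment. CPM, the count scaled to library size, used TMM library sizes. SE was taken from the log2 fold change and its F statistic. Paralog ratios used counts per kb of exon with a pseudocount of 0.5 counts and an exact permutation test. All values per kb of exon left out bases shared with another gene on the same strand. Exon lengths and overlaps came from GENCODE M21, matched by symbol. Copies are single-exon genes covered over at least 50% of their length, at 90% identity and 100 bases or more, by a spliced protein-coding gene (BLAST+ 2.17.0). Copies that GENCODE does not annotate were left aside, since no genome was searched.

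Deviations of same-numbered libraries showed no consistent correlation, and no block entered the main fit. The alternatives were DESeq2 1.42.0, RLE and upper-quartile scaling, no filter, no robust estimation, protein-coding genes only, genes sharing no sequence with other genes, copies added to parents, a replicate block, a pseudocount of 5, and each library left out. Leaving out libraries within the genes sharing no sequence was chosen after seeing the data. The edgeR script was tested on simulated data with 200 changed genes. Members and lists were chosen with earlier results of these data known. The naming rule gave values in every library for called genes, paired paralogs, Chd8, Chd2, Adnp and Pogz, and up to 3 called genes per list of further genes.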

Additional observations from a re-analysis of the deposited data

How the results depend on the processing

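Smarca5, Smarce1 and Bcl7c stayed called with DESeq2, with RLE and upper-quartile scaling, without a filter, without robust estimation and with protein-coding genes only, and in each of the 6 fits that left out 1 library (highest edgeR adjusted p of 0.00146, 0.0133 and 0.0344). None of these fits added the counts of copies to their parents. With copies added to parents, 1 of the 40 genes and 1 of the 60 further genes were called higher. The fit with copies added was not repeated without 1 library, so the Smarca5 call in it has no such check. The fit of genes sharing no sequence leaves out Smarca5, Smarce1 and Bcl7c by construction, so it does not bear on their calls. In it 0.461% of genes were called higher and 0.265% lower. Of the 29 remodeller genes and the 39 further genes that it holds, 0 and 0 were called by edgeR. At an unadjusted p under 0.05 these had 4 and 3 higher and 2 and 1 lower, beside 7.37% and 7.01% of genes in that fit. DESeq2 was not run on it. The count was also 0 in the 6 fits of these genes without 1 library. All-gene counts were 676 higher and 1390 lower in the fit of all genes, 292 and 307 with copies added, and 54 and 31 among genes sharing no sequence. Without 1 library, the 40 genes gave 3 to 5 calls higher, with 5 lacking GFP replicate 1. The shares of all genes called in those fits are not given here, so these counts have no background beside them. That holds also for the calls of Chd3 and Dpf1 without GFP replicate 1.

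Same-numbered libraries had correlations of -0.04, -0.05 and 0.31 between their deviations. Differently numbered libraries had -0.30 to 0.33, the highest for Kmt5b shRNA replicate 2 with GFP replicate 1. With 3 libraries per group, these values cannot decide whether samples were paired. With the replicate block, 3 remodeller genes were called higher and 0 lower, and Srcap, near 0, came to 0.0136. The share of all genes called with the block is not given here either.

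Sign changes fell on log2 fold changes close to 0. Srcap was also 0.0106 with DESeq2, 0.00700 with RLE scaling and 0.00205 without a filter. Ss18 was 0.00034 with DESeq2, and Smarcd1 -0.0015 with upper-quartile scaling. Without 1 library, ranges were -0.0744 to 0.0108 for Chd4, -0.00754 to 0.0464 for Smarcd1, -0.19 to 0.18 for Srcap, -0.0190 to 0.00569 for Ss18, -0.0187 to 0.16 for Brd9, -0.0358 to 0.0732 for Pogz and -0.0214 to 0.11 for Ino80. The group difference in log2 ratio ranged from -0.0604 to 0.0473 for Chd5/Chd4 and -0.0677 to 0.00046 for Smarca2/Smarca4. The cause was not tested. Adnp held 34 to 91 reads per library, and intervals cover these libraries only.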
